A study of Saccharomyces cerevisiae with 7 samples.

Results

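Proteins that fail quality control in budding yeast are tagged with ubiquitin and handed to the proteasome, and 10 genes of this route were followed across 7 expression arrays. They were taken by name, with earlier results of these data already known. They were the polyubiquitin gene *UBI4* and the ligase gene *SSM4* with its partners *UBC6*, *UBC7* and *CUE1*. The others were the ligase genes *UBR1* and *SAN1* and the Cdc48 complex genes *CDC48*, *UFD1* and *NPL4*. Each name was matched through its systematic name, and all 10 were found among the 6225 gene names on the array.

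Total RNA came from *Saccharomyces cerevisiae* BY4741, a MATa laboratory strain that carries mutations in *HIS3*, *LEU2*, *MET15* and *URA3*, grown to log phase in synthetic medium without uracil. Every culture, the control included, carried a multicopy plasmid with *URA3* and the *LEU2* allele *leu2d*. The control was the empty vector. The other 6 arrays were from cells that overproduced a fluorescent protein. GFP and GFP-Deg, which ends in a degron that sends it to the proteasome, were driven by the very strong *TDH3pro*. GFPm3, a mutant that misfolds, MTS-GFP with a mitochondrial targeting signal, and SS-GFP with a secretory signal sequence were driven by *PYK1pro*. NES-GFP, with a nuclear export signal, was driven by the weaker *HXT7pro*. The promoters therefore differed between constructs, and plasmid copy number was free to differ too. The arrays were split over 2 slides. GFP, GFP-Deg and SS-GFP shared slide 2, and the 4 arrays of slide 1 were NES-GFP, MTS-GFP, GFPm3 and the control.

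There was 1 array for each construct, so no difference between constructs could be tested and no replicate spread was known. The only error that could be measured was that among the 7 spots that each probe had on an array, which covers spotting and scanning and not the cultures. Over the 10 genes the pooled SD of these spots was 0.055 on the log2 scale, and the SE of the mean of a probe's spots was at most 0.036. All 490 spots of the 10 genes were well above background and none was saturated. The 75th percentile of the processed signal, used to scale each array, lay between 3719 for GFP and 5626 for NES-GFP. The share of yeast spots well above background was 97.0% to 97.7% on 6 arrays and 98.9% on the GFP-Deg array, which also had the most outlier spots, 373 against 252 to 333. The part of this difference in the GFP-Deg values below was not tested. The probes of *HIS3* and *MET15*, both mutated in the strain, were well above background on 0 arrays, while *LEU2* and *URA3*, which the plasmid supplies, were so on 7.

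As background, ubiquitin is activated by one enzyme, passed to a conjugating enzyme and attached to the substrate with the help of a ligase. *SSM4* encodes Doa10, a ligase of the endoplasmic reticulum and inner nuclear membrane, which works with the conjugating enzymes Ubc6 and Ubc7, and Cue1 holds Ubc7 at the membrane. Ubr1 is the ligase of the N-degron pathway and also acts on misfolded cytosolic proteins, and San1 does so in the nucleus. Cdc48, with its cofactors Ufd1 and Npl4, unfolds ubiquitinated proteins and pulls them out of membranes and complexes before the proteasome takes them.

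A level is given below as a multiple of the array's 75th percentile. A deviation is the log2 level of a gene minus its mean over the 7 arrays, so that the deviations of one gene sum to 0. Levels of different genes were read by different probes and are not compared with each other. Each array measured RNA from a whole culture, in which fewer cells with a transcript and less transcript per cell cannot be told apart.

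The GFP-Deg array held the highest values of most of these genes. All 10 deviations were above 0 on it, against 55.2% of all genes, and the median was 0.43 where the median of all genes was 0.04. Elsewhere the median of the group was between -0.15 (MTS-GFP) and -0.04 (empty vector and SS-GFP). For 8 of the 10 genes GFP-Deg was the highest array, as it was for 22.0% of all genes. The exceptions were *UBI4*, highest in MTS-GFP, and *UBC7*, highest in SS-GFP. Without scaling between arrays, 7 of the 10 genes were above their mean in GFP-Deg and 4 were highest there. The study called changes of 2-fold, and by that limit none of the 10 genes departed from its mean on any array, against 8.96% of all genes. At 1.5-fold, or 0.58 on the log2 scale, 4 of the 10 genes did so, against 31.7% of all genes. Over the alternatives this count ran from 1 to 6, and the share of all genes was not computed for them. The 4 genes were *SSM4*, *UBR1*, *CDC48* and *UFD1*, each on the high side and each in GFP-Deg, where 9.46% of all genes passed on that side. With quantile normalization *CDC48* was at 0.57 there, short of the limit, and *UBI4* at 0.59 in MTS-GFP passed it.

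**Figure D1:**
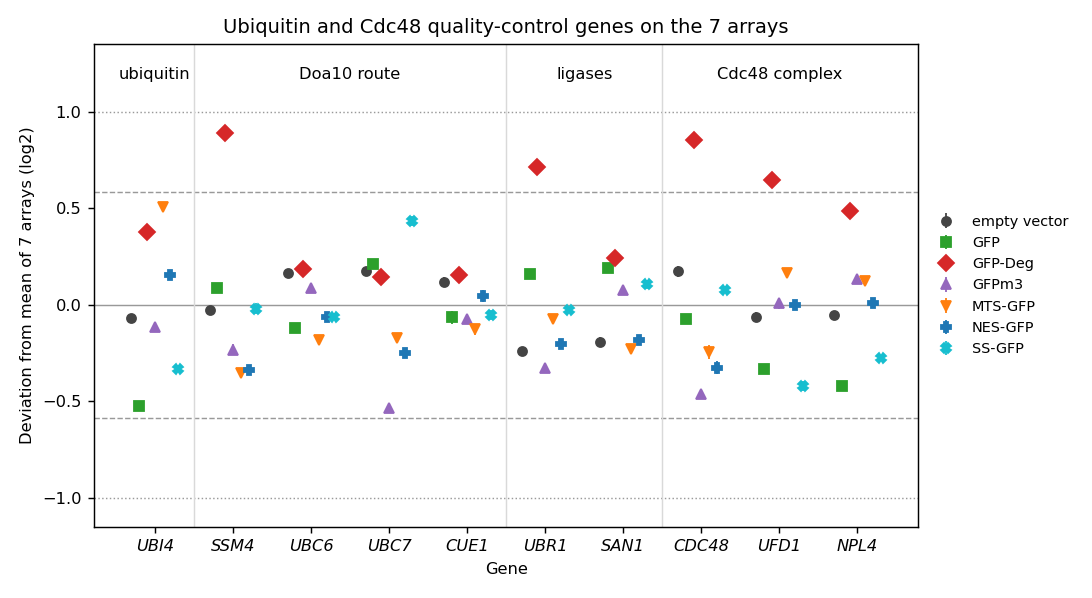
Deviation of each of the 10 genes (log2, vertical axis) on the 7 arrays, grouped by role along the horizontal axis; points are means of up to 7 spots, bars (mostly smaller than the points) are the SE over spots, dashed lines mark 1.5-fold and dotted lines 2-fold. The GFP-Deg points are above 0 for all 10 genes and pass the upper dashed line for *SSM4*, *UBR1*, *CDC48* and *UFD1*.

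*UBI4* encodes ubiquitin as a chain of head-to-tail repeats and is the stress-inducible source of it. Its level was 3.45 in the empty vector, 2.51 in GFP, 4.69 in GFP-Deg, 3.34 in GFPm3, 5.12 in MTS-GFP, 4.01 in NES-GFP and 2.87 in SS-GFP. MTS-GFP and GFP-Deg were high and GFP and SS-GFP low. The highest and lowest arrays were 2.04-fold apart, a wider range than 69.6% of all genes had. Ubiquitin is also made from *RPL40A*, *RPL40B* and *RPS31*, where it is fused to a ribosomal protein. In MTS-GFP, where *UBI4* deviated by 0.50, these 3 genes deviated by -0.65, -0.88 and -0.61. In GFP the signs were turned, with *UBI4* at -0.52 and the fusion genes at 0.40, 0.58 and 0.42. In GFP-Deg both kinds were above their means, *UBI4* at 0.38 and the fusion genes at 0.30, 0.45 and 0.41. Over the processing settings the median of the fusion genes ran from -0.79 to -0.18 in MTS-GFP and from 0.09 to 0.48 in GFP, and in GFP-Deg it was -0.012 against the mean of the slide, while *UBI4* ran from 0.38 to 0.70 in MTS-GFP and from -0.82 to -0.36 in GFP. With loess scaling 1 of the 3 fusion genes was above its mean in MTS-GFP and 2 of the 3 were in GFP. The ubiquitin repeats of these genes are nearly alike, and whether transcripts of one bound the probe of another was not tested.

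**Figure D2:**
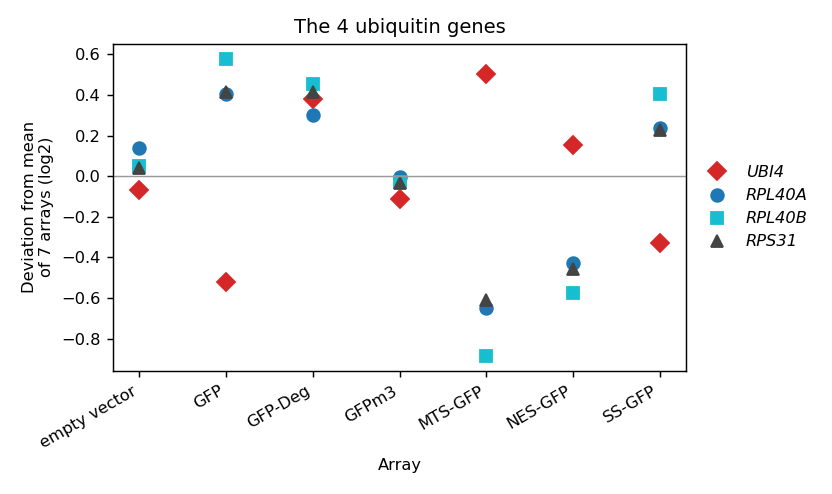
Deviation (log2, vertical axis) of *UBI4* and of the ubiquitin fusion genes *RPL40A*, *RPL40B* and *RPS31* on the 7 arrays. In MTS-GFP *UBI4* is at 0.50 and the fusion genes lie between -0.88 and -0.61; in GFP *UBI4* is at -0.52 and the fusion genes lie between 0.40 and 0.58.

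Among the Doa10 genes, the ligase and its partners behaved differently. The level of *SSM4* was 1.58 in the empty vector, 1.72 in GFP, 2.99 in GFP-Deg, 1.37 in GFPm3, 1.26 in MTS-GFP, 1.28 in NES-GFP and 1.59 in SS-GFP. GFP-Deg stood alone, 0.80 above the next array on the log2 scale, while the deviations of the other 6 arrays ran from -0.36 in MTS-GFP to 0.09 in GFP. *UBC7* followed another course: its level was 2.76 in the empty vector, 2.83 in GFP, 2.70 in GFP-Deg, 1.69 in GFPm3, 2.17 in MTS-GFP, 2.06 in NES-GFP and 3.31 in SS-GFP. It was low in GFPm3 and high in SS-GFP, 1.96-fold apart, and in GFP-Deg it was near the empty vector. The membrane-anchored enzyme gene *UBC6* and the Ubc7 partner gene *CUE1* varied little. *UBC6* ran from -0.18 in MTS-GFP to 0.18 in GFP-Deg, and *CUE1* from -0.13 in MTS-GFP to 0.15 in GFP-Deg. Their ranges, 1.29-fold and 1.22-fold, were below the median range over all genes of 1.69-fold. In both, GFP-Deg led the next array by 0.04 or less, and without scaling both were slightly below their mean there, at -0.010 and -0.039.

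The ligases that act outside membranes also differed from each other. The level of *UBR1* was 1.67 in the empty vector, 2.21 in GFP, 3.24 in GFP-Deg, 1.57 in GFPm3, 1.88 in MTS-GFP, 1.72 in NES-GFP and 1.94 in SS-GFP. GFP-Deg was again the highest, by 0.55 over GFP on the log2 scale. *SAN1* had no such array: GFP-Deg at 0.24 and GFP at 0.19 were its highest deviations and MTS-GFP at -0.23 its lowest.

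All 3 genes of the Cdc48 complex were highest in GFP-Deg, with a median deviation of 0.65 there. The level of *CDC48*, the gene of the ATPase itself, was 15.8 in the empty vector, 13.3 in GFP, 25.3 in GFP-Deg, 10.2 in GFPm3, 11.8 in MTS-GFP, 11.2 in NES-GFP and 14.8 in SS-GFP. With the scaling used for these levels, its range of 2.49-fold, from GFPm3 to GFP-Deg, was the widest of the 10 genes. That rank was lost with quantile normalization, where GFP-Deg minus GFPm3 was 0.96, under 2-fold. There *SSM4*, from -0.36 in MTS-GFP to 0.83 in GFP-Deg, and *UBI4*, from -0.55 in GFP to 0.59 in MTS-GFP, had wider ranges. Without scaling *CDC48* was lowest in GFP, at -0.37, and GFPm3 was at -0.23. The level of *UFD1* was 0.577 in the empty vector, 0.477 in GFP, 0.943 in GFP-Deg, 0.605 in GFPm3, 0.674 in MTS-GFP, 0.602 in NES-GFP and 0.450 in SS-GFP. That of *NPL4* was 0.281, 0.218, 0.407, 0.319, 0.317, 0.293 and 0.241 in the same order. These 2 cofactor genes shared their low arrays, GFP and SS-GFP, both on slide 2 with GFP-Deg. The low arrays of *CDC48* depended on the scaling. It was lowest in GFPm3, at -0.46, followed by NES-GFP at -0.33 and MTS-GFP at -0.24, but with quantile normalization GFP at -0.28 and SS-GFP at -0.10 were below NES-GFP at 0.003 and MTS-GFP at 0.08.

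**Figure D3:**
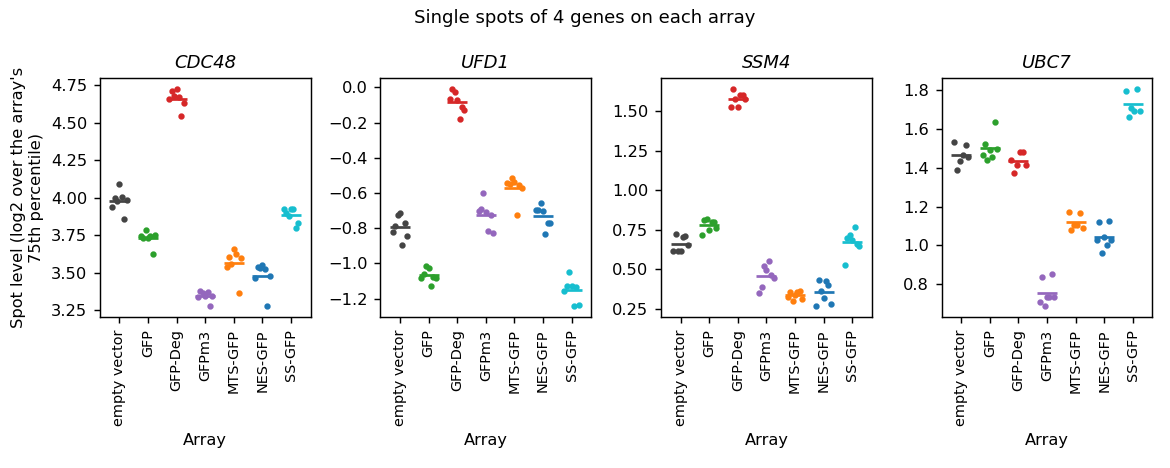
Single spots of *CDC48*, *UFD1*, *SSM4* and *UBC7* (log2 of the signal over the array's 75th percentile, vertical axis, with its own range in each panel) on the 7 arrays, with a line at the mean of the up to 7 spots. The GFP-Deg spots of *CDC48* lie above those of the other arrays, whose means are lower by 0.68 or more.

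GFP-Deg and GFP both used *TDH3pro* and lay on slide 2, and their difference set the degron-tagged protein against the untagged one. The median difference of the 10 genes was 0.68, against -0.0019 for all genes, and 9 of the 10 were higher in GFP-Deg. *UFD1* differed by 0.98, or 1.97-fold, *CDC48* by 0.93, or 1.90-fold, and *UBI4* and *NPL4* each by 0.90, or 1.87-fold. *SSM4* differed by 0.80, or 1.74-fold. These 5 genes passed 1.5-fold, as 6.89% of all genes did in this direction, and none passed 2-fold, which 1.53% of all genes did. *UBR1* fell just short of the limit at 0.55, or 1.47-fold, and *UBC6*, *CUE1*, *SAN1* and *UBC7* were at 0.31, 0.22, 0.05 and -0.07. The spot SE of these differences was between 0.013 and 0.044. Without scaling 6 genes passed 1.5-fold, *UBR1* being the sixth at 0.65, and 4 passed 2-fold, with *UFD1* at 1.08 and *CDC48* at 1.03. With the median of spots 6 genes passed 1.5-fold, *UBR1* at 0.594 among them, and 1 passed 2-fold, *UFD1* at 1.001. The shares of all genes were not computed for these 2 alternatives. Against SS-GFP, the remaining array of slide 2, 6 genes were over 1.5-fold higher in GFP-Deg, against 10.2% of all genes, with a different promoter. *UFD1* was over 2-fold higher, at 1.07, against 3.02% of all genes, and at 0.95 without scaling and 0.96 with normexp it was not. The 2 differences share the GFP-Deg array and are not separate evidence.

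Measured from the empty vector instead, which lay on slide 1, GFP-Deg was higher by 0.92 for *SSM4*, 0.95 for *UBR1*, 0.68 for *CDC48* and 0.71 for *UFD1*. These 4 genes passed 1.5-fold, against 12.0% of all genes, and *NPL4* at 0.53, *UBI4* at 0.45 and *SAN1* at 0.43 did not. Promoter, construct and slide differ together in this comparison and cannot be told apart. With quantile normalization *CDC48* was at 0.44 in this comparison and 3 genes passed, and without scaling *CDC48* at 0.53 and *UFD1* at 0.56 did not and 2 genes passed. For these 2 settings the share of all genes was not computed. The deviations from a mean also depended on the reference and the scaling: with slide 2 alone as the reference, the mean of 3 arrays that include GFP-Deg itself, *UFD1* at 0.68 was over the limit, while *SSM4* and *CDC48* were at 0.57 and *UBR1* at 0.43, and without scaling *UBR1* at 0.52 and *UFD1* at 0.45 were below it.

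Within slide 1 the constructs could be set against the empty vector. In GFPm3, *UBC7* was 1.64-fold lower, with a difference of -0.71, and *CDC48* was 1.55-fold lower, at -0.63. These were the 2 genes over 1.5-fold, where 6.91% of all genes were lower by that much, and the other 8 lay between -0.20 for *SSM4* and 0.27 for *SAN1*. Both calls were lost with quantile normalization, at -0.58 for *UBC7*, just short of the limit, and -0.52 for *CDC48*, with loess, at -0.57 and -0.47, and without scaling, at -0.44 and -0.36. In MTS-GFP none of the 10 genes passed 1.5-fold in either direction, while 22.9% of all genes did. *UBI4* was the nearest to it at 0.57, or 1.49-fold, and it passed with quantile normalization at 0.71, with normexp at 0.71, with loess at 0.84 and without scaling at 0.69. *CDC48* was at -0.42, but at -0.04 with quantile normalization and 0.10 with loess. In NES-GFP again none passed, against 14.4% of all genes. There *CDC48* was at -0.50, or -0.12 with quantile normalization, and *UBC7* at -0.42, or -0.076 without scaling. The 3 values of *CDC48* share the empty vector array.

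Other pairs kept the promoter or the slide the same. MTS-GFP minus GFPm3, both with *PYK1pro* on slide 1, was 0.62 for *UBI4*, or 1.53-fold, the only one of the 10 genes over 1.5-fold, against 9.67% of all genes on the high side, and 0.46 without scaling. *UBC7* was at 0.36 in that pair. SS-GFP minus GFP, on slide 2 with different promoters, lay between -0.19 for *UBR1* and 0.22 for *UBC7*, and none of the 10 genes passed 1.5-fold, against 7.26% of all genes. SS-GFP minus GFPm3, with the same promoter on different slides, was 0.97 for *UBC7*, whose highest and lowest arrays these were. *UBC7* was the only one of the 10 genes over 1.5-fold higher, against 12.0% of all genes. Its difference was 0.67 without scaling and 1.13 with each array's median.

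**Figure D4:**
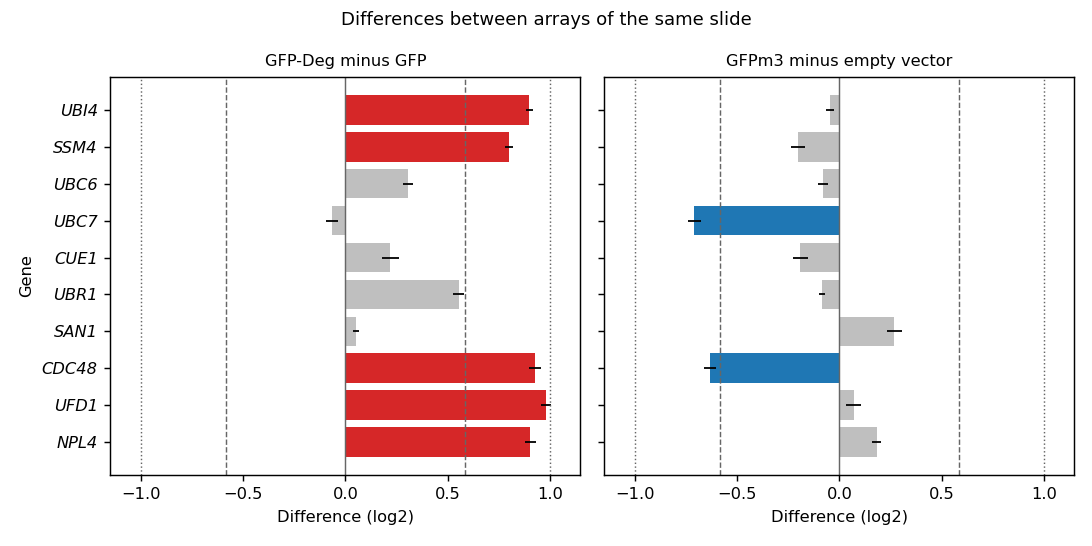
Differences between arrays of the same slide (log2, horizontal axis) for each of the 10 genes, GFP-Deg minus GFP on the left and GFPm3 minus the empty vector on the right; black lines are the spot SE of the difference, dashed lines mark 1.5-fold, dotted lines 2-fold, and bars past 1.5-fold are red (higher) or blue (lower). On the left 5 genes lie at 0.80 or above, and on the right *UBC7* at -0.71 and *CDC48* at -0.63 pass the lower dashed line.

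The other genes of the ubiquitin system were mixed in GFP-Deg. The 62 genes of 6 further lists had a median of 0.05 in GFP-Deg, where the median of all genes was 0.04. Of the 62, 34 (54.8%) were above their mean, against 55.2% of all genes. Of these 62 genes 8 were over 1.5-fold high, against 9.46% of all genes, and 2 over 1.5-fold low. The share of all genes on the low side was not computed. The list with the highest median, 1.01, was that of the shuttle receptors, which carry ubiquitinated proteins to the proteasome: *DDI1* was at 1.20, *DSK2* at 1.01 and *RAD23* at 0.93. *UBA1*, the gene of the ubiquitin-activating enzyme, was at 1.06, while the 10 activating and conjugating enzymes together had a median of 0.21, down to -0.34 for *UBC8*. Of 14 further Cdc48 cofactor genes, 4 were over 1.5-fold high, against the same 9.46% of all genes. These were *CUZ1* at 0.99, *UBX4* at 0.82, *OTU1* at 0.71 and *SHP1* at 0.62. The list ran down to -0.43 for *UBX6* and had a median of 0.08. *CUZ1* encodes a zinc-finger partner of Cdc48, *UBX4* and *SHP1* encode UBX-domain partners, and *OTU1* a Cdc48-bound deubiquitinating enzyme. The 14 other ligase and chain elongation genes had a median of -0.04, with *UBR2*, the ligase gene for the transcription factor Rpn4, highest at 0.54 and *HUL4* lowest at -0.92. The 18 deubiquitinating enzyme genes had a median of -0.11, with *UBP6*, whose product sits on the proteasome, highest at 0.56 and *UBP11* lowest at -1.04.

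**Figure D5:**
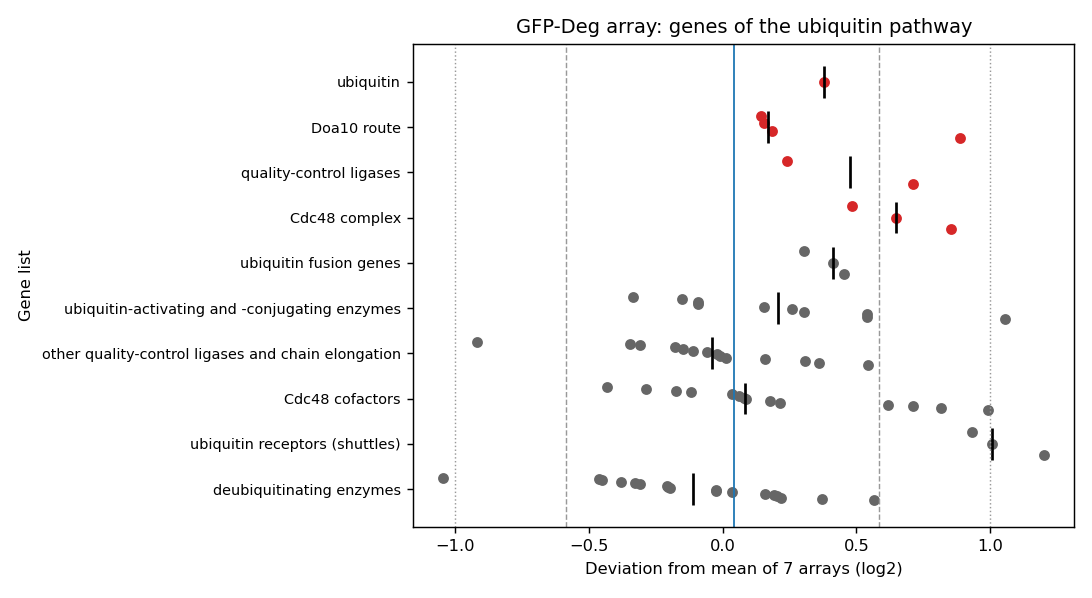
Deviation in GFP-Deg (log2, horizontal axis) of every gene of the lists of the ubiquitin system, one row per list, the 10 genes in red and the others in grey, with a black line at the median of each list, a blue line at the median of all genes, dashed lines at 1.5-fold and dotted lines at 2-fold. The shuttle receptors lie between 0.93 and 1.20, while the other ligases and the deubiquitinating enzymes have medians of -0.04 and -0.11.

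Against GFP, with the same slide and promoter, the values were similar in size. GFP-Deg minus GFP was 1.25 for *DDI1*, 1.30 for *DSK2*, 0.94 for *RAD23*, 1.02 for *UBA1* and 1.32 for *CUZ1*, and -0.98 for *UBP11*. Over the 62 genes the median difference was 0.01, against -0.0019 for all genes. Of the 62, 13 were over 1.5-fold higher and 2 lower, against 6.89% and 3.36% of all genes. In GFPm3 *UBC11*, a conjugating enzyme gene, was the only one of the 62 over 1.5-fold from its mean, at 1.78. Its processed signal was as low as 69.1 on its dimmest array. The lowest of the activating and conjugating enzyme genes there was *UBA1* at -0.50. The ligases ran from *RSP5* at -0.38 to *SLX5* at 0.46, the Cdc48 cofactors from *DFM1* at -0.51 to *VMS1* at 0.34, and the deubiquitinating enzymes from *DOA4* at -0.21 to *UBP3* at 0.50. The shuttle receptors, high in GFP-Deg, ran from *DDI1* at -0.48 to *RAD23* at -0.05 in GFPm3, and the fusion genes from *RPS31* at -0.03 to *RPL40A* at -0.006. In MTS-GFP 3 of the 62 genes were over 1.5-fold high, *UBC8* at 0.60, *HUL4* at 0.72 and *UBP11* at 0.59. The 4 low ones were the 3 fusion genes and *UBC11*. The share of all genes past 1.5-fold from their mean was not computed for GFPm3 or MTS-GFP alone. On at least 1 of the 7 arrays it was 31.7%.

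For the 5 genes whose arrays spanned over 2-fold, the most similar patterns were looked for among 5968 other genes well above background on all arrays, by the root-mean-square (RMS) difference of deviations over the 7 arrays. For *CDC48* these were *PRE3* at 0.056, *RPN9* at 0.076 and *RPN2* at 0.078, which all encode proteasome subunits. For *SSM4* they were *RFA1* at 0.078, *NEW1* at 0.085 and *PRE4* at 0.088, and for *UBR1* they were *RPO21* at 0.085, *PIM1* at 0.097 and *RTG1* at 0.10. *UFD1* was closest to *YAP1* at 0.086, *RPT4* at 0.088 and *RAD54* at 0.099, and *UBI4* to *PHB2* at 0.14, *YAP1* at 0.15 and *DBP1* at 0.15. *RPT4* and *PRE4* are proteasome subunit genes as well, and *YAP1* encodes an oxidative stress transcription factor. Within the 10 genes the closest partner was *SSM4* for *CDC48* at 0.14, and *NPL4* for *UFD1* at 0.10. These distances are descriptions over 7 arrays that all the genes share. They were taken with the scaling used for the deviations above and with no other. With quantile normalization *CDC48* went from -0.24 to 0.08 in MTS-GFP and from -0.08 to -0.28 in GFP. Its GFP-Deg minus GFPm3 difference was then 0.96, under 2-fold. Whether the same genes would be nearest with another scaling was not tested.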

How the data were processed

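Per the labels, total RNA was hybridised to 1-colour Agilent yeast arrays. The authors deposited Feature Extraction 10.10.1.1 processed signal intensity per spot, corrected for background and not scaled between arrays; the deposited value table held the same values for all 45209 spots. The study processed the raw data with the R package agilp, and the scaling step it took is not given in the sources used here. Control and outlier spots were left out, the log2 signal was taken relative to each array's 75th percentile, and spots were averaged within probes before probes within genes. A probe was well above background on an array where at least 4 spots were. Genes were named through the files' systematic names, of which 5737 of 6225 matched a locus tag of the RefSeq R64 gene table. Coordinates and sequences were not used here. Calls were made at 2-fold, as in the study, and at 1.5-fold.

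The 10 genes and all lists were chosen with earlier results of these data known. All 10 genes were named. Of a list, genes past 2-fold on any array and the highest and lowest in GFP-Deg and GFPm3 were named, and the 3 nearest patterns of each gene with an over 2-fold range. *SHP1*, *UBX4*, *OTU1* and the genes past 1.5-fold in MTS-GFP were named after their values were seen. With 1 array per construct no test was run and the number of arrays limits the precision. Other scalings, background corrections, spot filters and references were tried. Work was done in Python 3.11.15 with numpy 2.4.6 and pandas 2.3.3 and in R 4.3.3 with limma 3.58.1. The averaging, scaling and deviation steps were tested on simulated data with spot noise and no variation between cultures.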

Additional observations from a re-analysis of the deposited data

How the results depend on the processing

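With 1 array per construct no replicate could be left out, and no paired analysis was possible because each construct has a single array. Of 840 single values over 12 alternatives, 520 moved by less than the spot SD and 320 moved by more. Of the 4 called values, all in GFP-Deg and picked for being over 1.5-fold from the mean, 0 changed sign. Sign changes of the other values were not counted. *CDC48* in MTS-GFP went from -0.24 to 0.08 with quantile normalization. Part of these counts was fixed in advance. Keeping only spots well above background left all 70 values unchanged, since all 490 spots were so. Against the other 6 arrays each value is the main one times a fixed factor, so no sign could change. The count of genes over 1.5-fold was 4, fell to 1 against the mean of the slide, was 5 with loess, with each array's median, without scaling, against the median of the 7 arrays and against the empty vector, and was 6 against the other 6 arrays, a reference chosen after seeing the data. *UBI4* in MTS-GFP or GFP, *UBC7* or *CDC48* in GFPm3, and *UFD1* and *NPL4* in GFP were called in some of these, and 1 gene, *SSM4*, passed 2-fold against the other 6 arrays. The shares of all genes were not computed for the alternatives, so these counts cannot be set against them. In GFP-Deg the 10-gene median was 0.24 without scaling, 0.49 against the empty vector and 0.50 against the other 6 arrays. In GFPm3 it was -0.029 with quantile normalization, -0.033 against the median of the 7 arrays, -0.017 with normexp, -0.19 with each array's median and 0.13 without scaling. The median of the Cdc48 complex in GFP-Deg was 0.57 with quantile normalization and against the slide, 0.56 with normexp, 0.45 without scaling and 0.76 against the other 6 arrays. That of the 4 Doa10 genes was -0.025 without scaling, 0.23 against the median of the 7 arrays and 0.028 against the empty vector. GFP-Deg minus GFP had a median of 0.78 without scaling. Without scaling the median of all genes was -0.27 in GFP, -0.15 in GFP-Deg, and 0.27 in both GFPm3 and NES-GFP; 7 of the 10 genes were then above their mean in GFP-Deg and 4 were highest there. The called values in GFP-Deg ran from 0.56 to 0.996 for *CDC48*, 0.57 to 1.03 for *SSM4*, 0.43 to 0.95 for *UBR1* and 0.45 to 0.76 for *UFD1*. The median signal stood in for the mean signal in normexp. The cause of these shifts was not tested.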
